A study of Mus musculus with 26 samples.

Results

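The transcripts bound to ribosomes of gonadotropin-releasing hormone (GnRH) neurons were compared with the rest of the preoptic RNA in ovariectomized female mice, in 6 of the study's 26 libraries. These are the 3 ribosome pull-downs of ovariectomized females and the 3 supernatants left over from the same tissue, which the labels tie together by replicate number (0, 1 and 2). They come from 3 of the study's 13 pools of animals, with 7 mice in each pool. Members were chosen by the labels' sex, surgery and fraction, and no measured value was used. The study applied TRAP-seq, in which tagged ribosomes are purified and the RNA bound to them is sequenced, to ovariectomized females, females in diestrus, intact males and orchidectomized males.

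All animals of the study carried the same alleles, a Cre recombinase driven in GnRH neurons and a floxed-stop transgene for the ribosomal protein L10a fused to GFP. The tag is therefore made in cells in which the GnRH Cre has been active, and the antibody against GFP pulls down their ribosomes. The mice were adults of 55 to 165 days, and the tissue was punched from the preoptic area of the hypothalamus. For strain, time since surgery and any steroid replacement, nothing is given in the sources used. Per the labels, the loss of ovarian steroids was checked by uterine mass and serum LH, which are not analysed here. The supernatant is preoptic tissue depleted of GnRH neuron ribosomes and is no sample of another cell type. In such bulk samples, fewer cells of a type and less RNA per cell cannot be told apart.

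GnRH neurons are a small, scattered population that sends axons to the median eminence and drives the pituitary gonadotropes. Estradiol from the ovary feeds back on them, for the most part through kisspeptin and other neurons upstream that carry estrogen receptor alpha, and ovariectomy removes that feedback, so that LH secretion rises. They arise in the nasal placode and migrate into the forebrain before birth.

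The 6 libraries held 27217253 to 40530992 counts each. The pull-downs detected 16215 to 16570 genes and the supernatants 17614 to 17886. The pull-downs varied more from pool to pool, and edgeR's common coefficient of biological variation was 0.488 for them and 0.227 for the supernatants. The correlation of log2 CPM across genes was 0.904 to 0.915 between pull-downs and 0.969 to 0.975 between supernatants. CPM are counts scaled to a common library size with TMM factors. No 2 libraries of a fraction agreed within counting noise (chi-square per degree of freedom of 43.4 or more), so all 6 were kept. The mice of a pool are not measured separately, so p-values rest on the spread between pools. That spread was estimated over the pools of all conditions, not over those of ovariectomized females alone, and without pairing the fractions. All 6 libraries carry label numbers in the later range (11 to 30), as do 6 of the other 10 pull-downs.

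Gnrh1, which encodes the GnRH precursor and is the marker of the tagged cells, stood at 6558, 5096 and 8774 CPM in the pull-downs of pools 0, 1 and 2. In the supernatants of the same pools it stood at 273, 454 and 92.8 CPM. The pull-down of pool 1 was the lowest and its supernatant the highest, and the groups did not overlap. Gnrh1 made up 0.672%, 0.510% and 0.876% of all counts of the pull-downs. It was 24.9-fold higher there (log2 4.64 ± 0.99 SE, n = 3 pools, edgeR adjusted p = 0.00421). The gene lies on chromosome 14 from 67745181 to 67749440 (GRCm38.p6, the assembly of mm10, as are all positions here). The 6 other pull-downs of the later numbers held 3174 to 8743 CPM, and the 4 pull-downs numbered 1 to 10, all from intact mice, held 16896 to 20931 CPM.

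Of 16713 genes tested, 496 were higher in the pull-down (2.97%) and 554 lower (3.31%) at an adjusted p under 0.05, which makes 6.28% in both directions. At least a 2-fold difference was reached by 314 of the higher and 267 of the lower genes. All 496 higher genes went the same way in 3 of 3 pools, as did 551 of the lower ones. The median log2 fold change over all genes tested was -0.02. For the 68 distinct genes of the lists that were higher (28) or lower (40), each of the 6 libraries was left out in turn. The call held in all 6 refits for 20 of the 28 and 15 of the 40, and those described here that lost it are named with their group. Of the higher genes, 473 averaged at least 5 CPM in the pull-down, and of the lower genes 492 averaged that much in the supernatant. Among the lower genes, 26 had no reads in any of the 3 pull-downs, so their fitted fold changes are no measure of size.

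**Figure D1:**
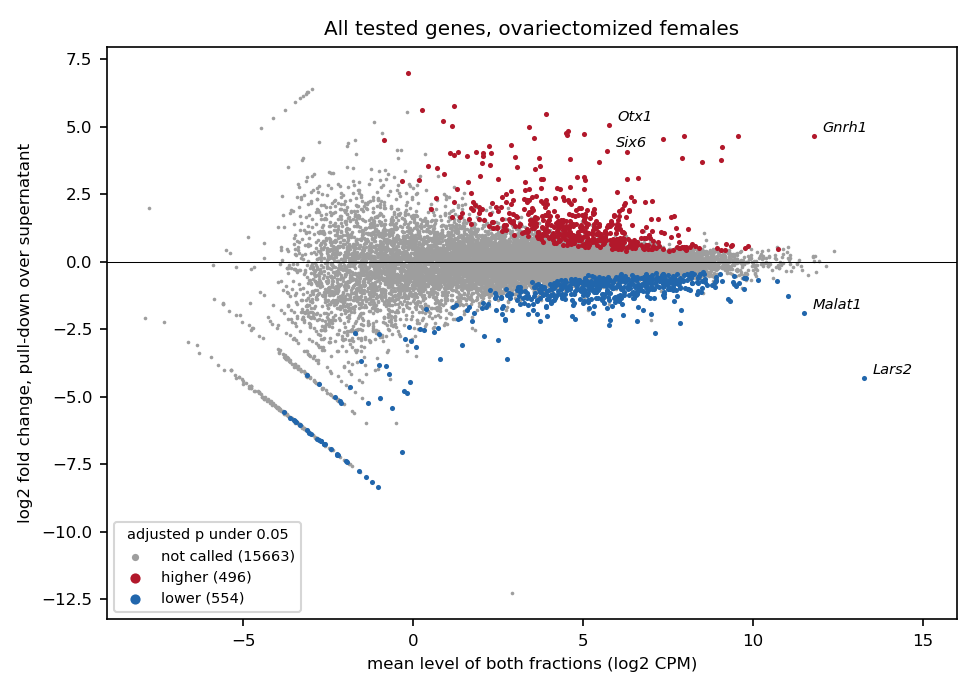
Each point is a tested gene, with the mean level of both fractions in log2 CPM on the x axis and the log2 fold change of pull-down over supernatant on the y axis. Red points are the 496 genes that were higher and blue points the 554 that were lower at an adjusted p under 0.05, and the diagonal lines of points at the lower left are genes with no reads in the pull-downs. Gnrh1 combines a high level with a high fold change, and Lars2 is the most abundant gene among those that were lower.

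Of the 12 genes with the highest fold change, 11 are described here, and a transcription factor was among them. Otx1, a homeobox gene of forebrain and sense organ development on chromosome 11 from 21994764 to 22001651, stood at 108, 76.2 and 135 CPM in the pull-downs of pools 0, 1 and 2. Its supernatants held 3.71, 3.60 and 2.35 CPM. Pool 1 was again the lowest of the pull-downs, and no supernatant came near them. Otx1 was 33.2-fold higher in the pull-down (log2 5.05 ± 0.59 SE, edgeR adjusted p = 4.08e-06).

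Chromatin genes formed another part of these 11. Tnrc18, on chromosome 5 from 142724602 to 142823668, held 1971, 801 and 1595 CPM in the pull-downs and 60.1, 69.0 and 45.4 CPM in the supernatants. The pull-down of pool 1 had less than any other pull-down, and still far more than each supernatant (log2 4.65 ± 0.42 SE, edgeR adjusted p = 1.43e-07). Bahcc1, which like Tnrc18 encodes a BAH-domain protein, on chromosome 11 from 120232870 to 120292297, held 598, 267 and 576 CPM against 21.8, 21.9 and 13.2 CPM (log2 4.67 ± 0.53 SE, adjusted p = 3.49e-06). The corepressor gene Bcor, on chromosome X from 12036737 to 12160516, held 387, 162 and 392 CPM against 12.8, 14.9 and 12.6 CPM (log2 4.55 ± 0.44 SE, adjusted p = 4.21e-07). For all 3 genes the pull-downs of pools 0 and 2 lay closer to each other than to pool 1, which was below them.

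Enzymes and surface proteins made up most of the rest. Rab25, a Rab-family GTPase that sorts membrane cargo in epithelia, on chromosome 3 from 88542029 to 88548279, had the highest fold change of the named genes. It stood at 29.9, 18.7 and 40.0 CPM in the pull-downs and at 0.509, 1.19 and 0.328 CPM in the supernatants, a 44.7-fold difference (log2 5.48 ± 0.76 SE, edgeR adjusted p = 4.05e-05). Without the supernatant of pool 1, its highest, the log2 was 6.16, and without that of pool 2 it was 5.12. Arg1, the arginase of the urea cycle, on chromosome 10 from 24915207 to 24927470, had 42.2, 31.0 and 56.5 CPM against 1.34, 2.12 and 1.26 CPM (log2 4.79 ± 0.56 SE, adjusted p = 4.08e-06). Both genes were lowest in the pull-down of pool 1 and highest in its supernatant, as Gnrh1 was. Tmprss6, a membrane serine protease known from the liver (log2 4.86), the sulfurtransferase-domain gene Tstd1 (4.73), the epithelial adhesion molecule Epcam (4.58) and Ccdc68 (4.98) completed the 11. All 11 had groups that did not overlap, as had 487 of all 496 higher genes (12.8% of all genes tested were so upward). As the 11 were chosen by their calls, this is a description. The median log2 difference within a pool over the 12 genes was 4.86 in pool 0, 3.55 in pool 1 and 5.83 in pool 2.

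**Figure D2:**
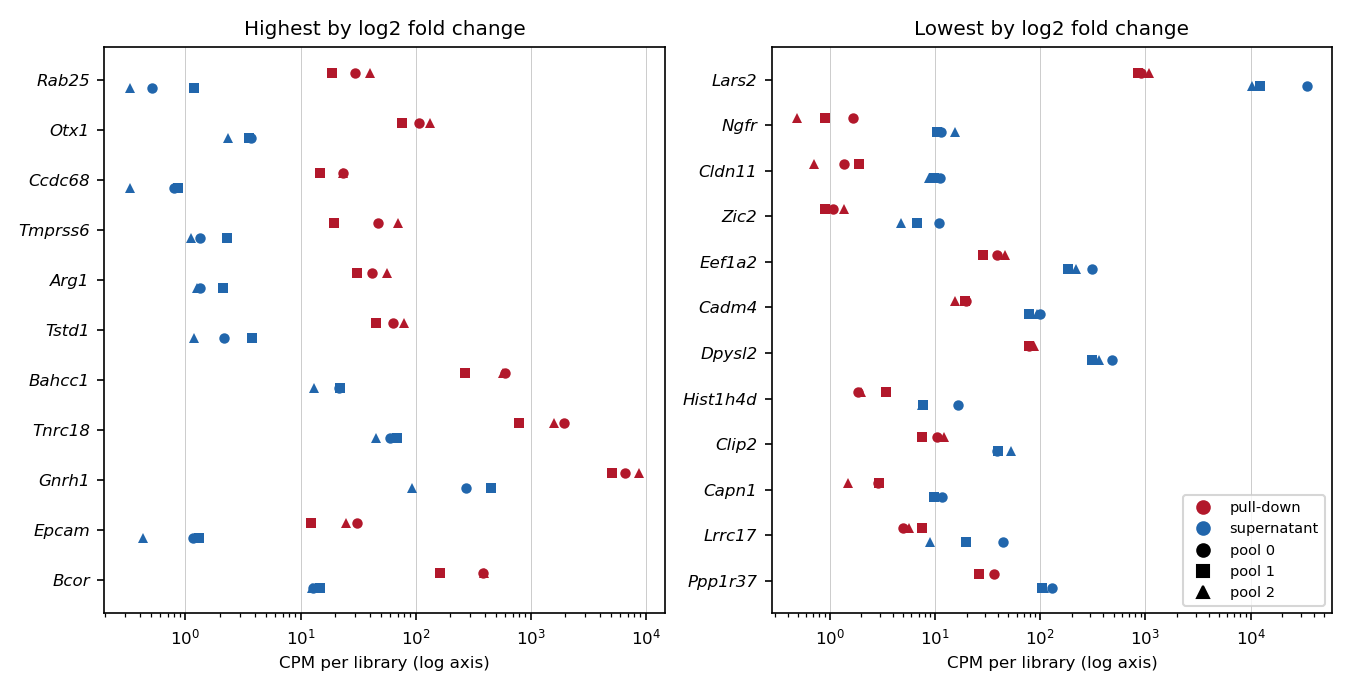
CPM per library on a log axis for 11 of the 12 genes with the highest (left) and the 12 with the lowest (right) log2 fold change, with pull-downs in red, supernatants in blue and the marker's shape giving the pool. The groups do not overlap for any of the 23 genes, and the squares of pool 1 lie at the left of the pull-downs for all 11 genes of the left panel, Gnrh1 at 5096 CPM among them.

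The sequence upstream of the start is shown for 2 of the genes that were higher, because one holds both motifs that were looked for and the other, the gene with the highest fold change, holds neither. The motifs were TAATCC, the core bound by bicoid-type homeodomains such as those of the Otx family, and CAGCTG, an E-box core of basic helix-loop-helix factors such as Nhlh2, on either strand. The windows are the 250 bases before the RefSeq start, 5′ to 3′ on the gene's strand, and capitals mark the motifs. Both genes are read from the minus strand of GRCm38.p6, Isl1 from chr13:116309689-116309938 and Rab25 from chr3:88548280-88548529.
Isl1: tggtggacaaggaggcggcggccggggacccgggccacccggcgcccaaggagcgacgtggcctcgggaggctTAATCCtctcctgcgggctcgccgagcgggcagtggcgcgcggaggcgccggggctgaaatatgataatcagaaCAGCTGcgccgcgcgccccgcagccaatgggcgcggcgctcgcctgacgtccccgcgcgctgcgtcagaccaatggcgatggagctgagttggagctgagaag
Rab25: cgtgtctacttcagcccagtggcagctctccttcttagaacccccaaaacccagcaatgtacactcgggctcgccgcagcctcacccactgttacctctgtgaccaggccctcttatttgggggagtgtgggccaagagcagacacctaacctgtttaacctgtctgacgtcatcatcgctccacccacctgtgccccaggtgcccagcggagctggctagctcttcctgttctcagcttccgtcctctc
Of 33 named or listed genes that were higher, 19 had a window in the RefSeq table. TAATCC was in 1 of the 19 (Isl1), against 6.25% of 32851 windows of all genes. CAGCTG was in 2 of the 19 (Isl1 and Grhl1), against 13% of all windows. The motifs do not overlap each other, and a match describes these letters only.

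Among 24 tested genes that mark or act in GnRH neurons, the pull-down was higher for 9 and lower for 0, with a median log2 of 0.68 against -0.02 over all genes tested. The share that was higher, 37.5%, stands against 2.97% of all genes. The list holds Otx1 and Arg1, which were taken into it because they were known from these data, so it is no independent evidence of its direction. Its median was 0.49 to 0.69 when each of the 6 libraries was left out in turn, and 8 to 10 genes were higher. Dlx5 was lost without the supernatant of pool 2 (adjusted p = 0.0588) and Npffr1 without that of pool 1 (0.0653).

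Transcription factors made up 5 of the 9. Six6, a homeobox gene of the eye and hypothalamus without which mice have few GnRH neurons, stood at 102, 55.4 and 139 CPM in the pull-downs and at 7.23, 5.64 and 4.39 CPM in the supernatants (log2 4.11 ± 0.47 SE, edgeR adjusted p = 3.78e-06). Pool 1 had the lowest pull-down, and the groups were far apart. Nhlh2, a basic helix-loop-helix factor of hypothalamic neurons, had 35.6, 15.7 and 32.1 CPM against 7.41, 6.31 and 8.89 CPM (log2 1.88 ± 0.29 SE, adjusted p = 0.000125). Isl1, a LIM-homeobox gene, had 173, 139 and 176 CPM against 63.0, 76.1 and 59.3 CPM (log2 1.30 ± 0.18 SE, adjusted p = 3.61e-05). Isl1 is well expressed in the supernatant too, and its groups did not overlap. Dlx5, a homeobox gene of forebrain neurons, was 1.73-fold higher (log2 0.79 ± 0.18 SE, adjusted p = 0.00787). Related factors did not pass, among them Otx2 (log2 0.82, adjusted p = 0.249) and Vax1 (0.66, 0.281).

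Receptors for peptides that act on GnRH neurons were higher too. Kiss1r, the receptor for kisspeptin, stood at 26.7, 19.1 and 41.1 CPM in the pull-downs and at 11.01, 9.99 and 10.03 CPM in the supernatants. The supernatants were nearly equal and the pull-downs spread from pool to pool without reaching them, with a 2.80-fold difference (log2 1.49 ± 0.28 SE, edgeR adjusted p = 0.00156). Npffr1, the receptor for RFamide-related peptides, which restrain GnRH neurons, had 12.9, 8.59 and 12.9 CPM against 4.94, 3.16 and 3.91 CPM (log2 1.52 ± 0.36 SE, adjusted p = 0.0101). The peptide gene Kiss1 itself was at 2.97, 3.71 and 1.98 CPM in the pull-downs and at 4.07, 2.67 and 3.08 CPM in the supernatants, with overlapping groups (log2 -0.18 ± 0.49 SE, adjusted p = 0.906). Among 58 tested receptors for peptides, amines and prostaglandins, Kiss1r and Npffr1 were the 2 that were higher (3.45%, against 2.97% over all genes). The dopamine receptor Drd2 (log2 -1.38) and the histamine receptor Hrh3 (-0.86) were lower (3.45%, against 3.31% over all genes). They held in 2 and 5 of 6 refits without a library, and the median of the list was -0.34.

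Genes of GnRH neuron migration and of hypogonadotropic hypogonadism were mostly not enriched. Of 36 tested, 2 were higher (5.56%, against 2.97% over all genes) and 0 lower, and the median was -0.20. One of them was Kiss1r, and the other was Chd7, a chromatin remodeler mutated in CHARGE and Kallmann syndromes, with 46.2, 43.7 and 62.2 CPM in the pull-downs and 19.2, 15.8 and 12.9 CPM in the supernatants. Its groups did not overlap (log2 1.67 ± 0.26 SE, edgeR adjusted p = 0.000172). Fgfr1, the receptor for the fibroblast growth factors that set up GnRH neurons, did not pass (log2 -0.86, adjusted p = 0.0995), nor did the semaphorin receptor Nrp1 (0.88, 0.111).

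Epithelial-type genes were the list with the highest median. Of 28 tested (of 30), 12 were higher and 1 was lower, with a median log2 of 1.44, against 2.97% higher and 3.31% lower over all genes. This list was drawn up with Rab25, Epcam and other such genes known from these data, and 10 to 11 of its members were higher when each library was left out in turn. Krt8, a keratin of simple epithelia, stood at 25.4, 18.2 and 30.1 CPM in the pull-downs and at 1.89, 1.78 and 1.49 CPM in the supernatants (log2 3.84 ± 0.46 SE, edgeR adjusted p = 5.77e-06). The tight-junction gene Cldn9 had 16.7, 9.93 and 15.7 CPM against 0.618, 1.11 and 0.429 CPM (log2 4.31 ± 0.65 SE, adjusted p = 0.000105). Neither gene had overlapping groups, and both were lowest in the pull-down of pool 1. Cldn7 (4.30), the epithelial adaptor Ap1m2 (3.65), Cldn3 (3.18), the protease inhibitor Spint1 (1.92), Marveld3 (1.80) and the transcription factor Grhl1 (1.10) were also higher. Marveld3 did not pass with the pool as a block (adjusted p = 0.0862) or in 5 of 6 refits without a library, all but the one without the pull-down of pool 0. Grhl1 was lost without the supernatant or the pull-down of pool 0 (adjusted p up to 0.0805).

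Other defining genes of epithelia did not go along. Cdh1, the adhesion molecule of epithelial sheets, stood at 0.123, 5.29 and 0.0494 CPM in the pull-downs and at 0.581 to 1.45 CPM in the supernatants, with the pull-down of pool 1 above and the others below (log2 0.88, edgeR adjusted p = 0.777). The pull-down of pool 1, lowest in Krt8 and Cldn9, was thus the highest in Cdh1. Krt19, another simple keratin, was lower in the pull-down (0.674, 0.0273 and 0.816 CPM against 4.29, 2.23 and 1.94 CPM; log2 -2.47, adjusted p = 0.0470), a call that was lost with the pool as a block (adjusted p = 0.0565) and in all 6 refits without a library (adjusted p up to 0.183). Ovol2 had no reads in the 3 pull-downs. Summed over the list, the pull-downs held 475, 314 and 531 CPM and the supernatants 125, 113 and 99.1 CPM. The source of these transcripts within the punches was not tested.

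**Figure D3:**
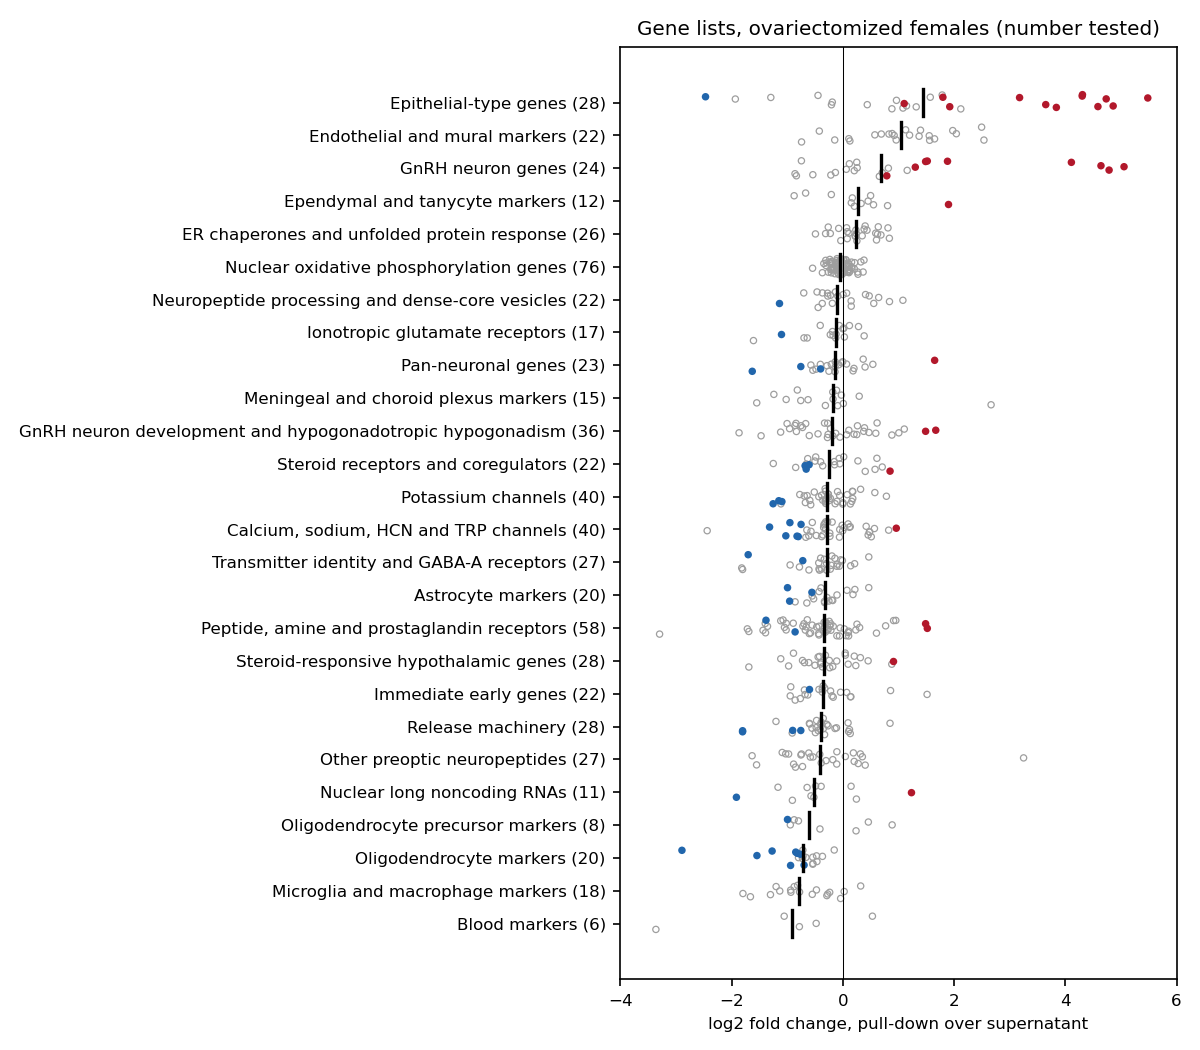
Each point is a tested gene of a list, placed by its log2 fold change of pull-down over supernatant, and the black bar is the median of the list. Red points were higher and blue points lower at an adjusted p under 0.05, open points did not pass, the number tested is in brackets, and 4 entries lie outside the plotted range. The most filled red points stand in the lists of epithelial-type genes (12) and GnRH neuron genes (9), and no other list holds more than 2. The most blue points of any list stand in that of oligodendrocytes (8).

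The genes that were lowest in the pull-down include markers of myelin and of other neurons. Cldn11, the tight-junction protein of myelin, on chromosome 3 from 31149920 to 31164326, stood at 1.38, 1.91 and 0.717 CPM in the pull-downs and at 11.3, 9.73 and 8.79 CPM in the supernatants (log2 -2.89 ± 0.39 SE, edgeR adjusted p = 2.73e-05). Every pull-down was far below every supernatant. Ngfr, the low-affinity neurotrophin receptor of basal forebrain neurons, on chromosome 11 from 95568818 to 95587698, had 1.69, 0.900 and 0.494 CPM against 11.4, 10.5 and 15.4 CPM (log2 -3.61 ± 0.47 SE, adjusted p = 1.58e-05). The groups did not overlap for any of the 12 lowest genes, nor for 542 of all 554 lower genes (14.5% of all genes tested were so downward). As the 12 were chosen by their calls, this is a description.

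Dpysl2, a microtubule-binding protein of growing axons, on chromosome 14 from 66802864 to 66911041, had the lowest p of the 12. It stood at 77.7, 77.7 and 86.9 CPM in the pull-downs and at 478, 311 and 366 CPM in the supernatants (log2 -2.25 ± 0.14 SE, edgeR adjusted p = 4.50e-10). Eef1a2, the translation elongation factor of mature neurons and muscle, had 38.6, 28.97 and 46.8 CPM against 314, 185 and 218 CPM (log2 -2.65 ± 0.20 SE, adjusted p = 1.14e-08). In both genes the supernatant of pool 0 was the highest. Cadm4, an adhesion molecule of myelinating glia (log2 -2.33), the zinc-finger gene Zic2 (-2.74), the microtubule linker Clip2 (-2.12), the protease Capn1 (-2.11) and Ppp1r37 (-1.96) were lower too. Hist1h4d (-2.14) is 1 of many near-identical histone genes, so its value is uncertain.

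Lars2, the mitochondrial leucyl-tRNA synthetase, on chromosome 9 from 123366927 to 123462675, had the lowest fold change of the named genes. It stood at 919, 843 and 1093 CPM in the pull-downs and at 33979, 12254 and 10380 CPM in the supernatants (log2 -4.31 ± 0.33 SE, edgeR adjusted p = 1.23e-08). The supernatant of pool 0 stood well above the others. That library also held the most of the ribosomal RNA precursor Rn45s among the 6 (4771 CPM, against 1749 and 2359 CPM in the other supernatants and 1015 to 1422 CPM in the pull-downs). Without that library Lars2 was at -3.57 (adjusted p = 3.44e-10). How reads with several matches were counted is not given, so the value of Lars2 is uncertain. Whether all its counts come from its own transcript was not tested.

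Lrrc17, a secreted leucine-rich repeat protein, on chromosome 5 from 21543527 to 21575911, is the named gene that rested most on a single library. Its supernatants held 44.7, 19.8 and 9.09 CPM and its pull-downs 5.00, 7.56 and 5.71 CPM (log2 -2.01 ± 0.43 SE, edgeR adjusted p = 0.00412). Without the supernatant of pool 0 it was at -1.25 (adjusted p = 0.0826). It did not pass in limma voom either (-1.64, adjusted p = 0.298), nor in the 6 libraries fitted alone with the pool as a block (-1.72, adjusted p = 0.0583).

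Many markers of myelinating glia were lower. Of 20 oligodendrocyte markers, 8 were lower (3.31% over all genes) and 0 higher, 0 had a positive fold change and the median was -0.72. Sox10, the transcription factor of the lineage, had 22.4, 28.05 and 24.6 CPM in the pull-downs and 81.1, 73.6 and 64.4 CPM in the supernatants (log2 -1.55 ± 0.23 SE, edgeR adjusted p = 0.000114). The pull-downs lay close together and well below the supernatants. Myrf (-1.27), Olig1 (-0.94), Trf (-0.85), Mobp (-0.82) and Cnp (-0.77), genes of oligodendrocyte differentiation and myelin, were lower as well. The number lower was 3 without the pull-down of pool 0 or of pool 2, 11 without that of pool 1, and 5 or 6 without a supernatant. Cldn11, Sox10 and Olig1 held in all 6 refits. Cnp and Mobp held in 4, Trf in 2 and Myrf in 1, and Myrf did not pass with the block (adjusted p = 0.0589). The 20 markers were still present in the pull-downs, with summed levels of 1604, 2317 and 1559 CPM against 2782, 3068 and 2905 CPM, or 62.6% of the supernatant mean.

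Astrocyte markers gave 3 lower (15%, against 3.31% over all genes) and 0 higher genes of 20, with a median of -0.33. These were Glul, the glutamine synthetase (log2 -0.996, edgeR adjusted p = 0.000723), Atp1b2 (-0.96) and Ndrg2 (-0.56), and their summed level in the pull-downs was 77.3% of that in the supernatants. Glul held in 6 of 6 refits without a library, Ndrg2 in 1 and Atp1b2 in 0. Of 8 markers of oligodendrocyte precursors, C1ql1 was lower (-1.004), in 3 of 6 refits only. This 1 gene is 12.5% of the 8, against 3.31% lower over all genes. None of 18 microglial markers passed, with a median of -0.80. Cx3cr1, the fractalkine receptor of microglia, came nearest (-1.80, adjusted p = 0.0712), and the summed levels were 61.0, 147 and 86.6 CPM in the pull-downs and 174, 190 and 126 CPM in the supernatants. The pull-down of pool 1 was the highest of the 3 in both oligodendrocyte and microglial markers and the lowest in Gnrh1.

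Vascular markers went the other way without passing. None of 22 endothelial and mural markers was called in edgeR, yet 19 had a positive fold change and the median was 1.04. Their summed level was 252, 212 and 104 CPM in the pull-downs of pools 0, 1 and 2 and 104, 139 and 80.6 CPM in the supernatants, so that the pull-down of pool 2 lay among the supernatants. The median difference within a pool was 1.64, 0.64 and -0.01. Cldn5, the tight-junction protein of brain endothelium, shows the spread, at 21.3, 15.3 and 4.62 CPM against 5.09, 5.64 and 2.45 CPM (log2 1.65 ± 0.82 SE, adjusted p = 0.279). Of 12 markers of ependyma and tanycytes, 1 was higher (8.33%, against 2.97% over all genes). Rsph1, a protein of motile cilia, had 134, 102 and 151 CPM in the pull-downs and 42.4, 26.1 and 35.4 CPM in the supernatants (log2 1.90 ± 0.26 SE, adjusted p = 3.14e-05). The ciliary regulator Foxj1, which marks ependyma, did not share this (-0.67, adjusted p = 0.374). None of 15 meningeal and choroid plexus or 6 blood markers passed. With the pool as a block, the meningeal and choroid genes Igf2, Clic6 and Aldh1a2 and the hemoglobin gene Hba-a1, which had no reads in the pull-downs, were lower. The block called 571 of 16713 genes lower.

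**Figure D4:**
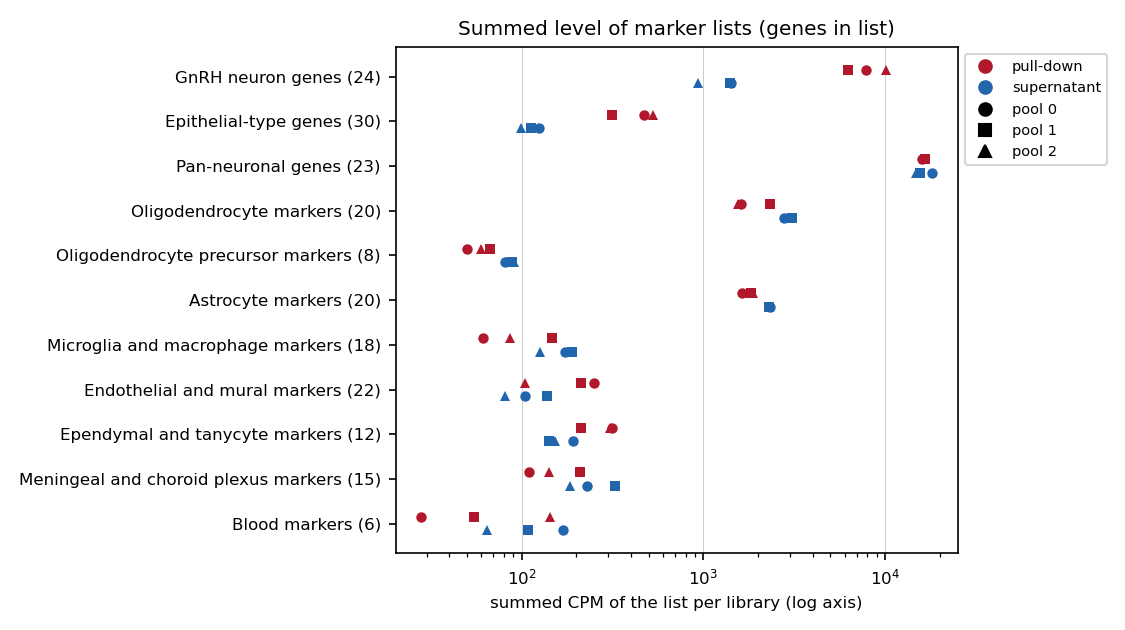
Summed CPM of each marker list per library on a log axis, with pull-downs in red, supernatants in blue and the shape giving the pool. GnRH neuron genes (6258 to 10166 CPM in the pull-downs, most of it Gnrh1, against 934 to 1426 CPM), epithelial-type genes and ependymal and tanycyte markers separate upward. Most of the gap of the ependymal and tanycyte markers is Rsph1, the 1 of 12 tested that was higher. The lists of oligodendrocytes, their precursors and astrocytes separate downward, and the microglial and pan-neuronal sums of both fractions overlap.

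Genes shared by all neurons had a median of -0.14, with 1 of 23 higher (4.35%, against 2.97% over all genes) and 3 lower (13%, against 3.31%). Nefh, the heavy neurofilament, was higher at 302, 213 and 352 CPM against 94.5, 88.3 and 93.5 CPM (log2 1.65 ± 0.35 SE, edgeR adjusted p = 0.00442). Thy1 (-1.63), the dendritic protein Map2 (-0.76) and the intermediate filament Ina (-0.40) were lower. With the pool as a block, 1 gene was higher and 1 lower in place of 1 and 3, since Map2 (adjusted p = 0.0516) and Ina (0.0686) did not pass. They also held in just 1 of 6 refits without a library. The long noncoding RNA Malat1, which stays in the nucleus and is not bound by ribosomes, had 856, 2039.9 and 742 CPM in the pull-downs and 5515, 4931 and 3268 CPM in the supernatants (log2 -1.91 ± 0.43 SE, adjusted p = 0.00602). Here, too, the pull-down of pool 1 lay nearest to the supernatants, and the call was lost without the pull-down of pool 2 (adjusted p = 0.0555). Without the pull-down of pool 1 Malat1 was at -2.52, and without that of pool 2 at -1.66. Rmst, a noncoding RNA of neural development, was higher (1.23 ± 0.28 SE, adjusted p = 0.00695, 0.0523 without the supernatant of pool 1), and the median of 11 nuclear noncoding RNAs was -0.52. Of these 11, 1 was higher and 1 lower, 9.09% each, against 2.97% and 3.31% over all genes. The block called Meg3 and Kcnq1ot1 lower as well. Over all 16713 genes it called 456 higher and 571 lower.

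Genes of transmitter release and of GABA signaling were lower or did not pass. Of 28 tested genes of the release machinery, 4 were lower (3.31% over all genes) and 0 higher, with a median of -0.40, and in 14 of them every pull-down lay below every supernatant (14.5% over all genes). Cplx2, which clamps and promotes vesicle fusion, had 97.2, 128 and 89.3 CPM in the pull-downs and 524, 311 and 264 CPM in the supernatants (log2 -1.80 ± 0.19 SE, edgeR adjusted p = 1.49e-06). The calcium sensors Syt2 (-1.80) and Syt7 (-0.76) and the active-zone protein Pclo (-0.90) were the others. With the pool as a block 7 of the 28 were lower, against 571 of 16713 over all genes. Cplx2 held in all 6 refits without a library, Syt2 and Syt7 in 3 and Pclo in 2. Syt2 was at -2.47 without the pull-down of pool 2 and at -1.43 without that of pool 0. Of 27 genes of transmitter identity and GABA-A receptors, 2 were lower (7.41%, against 3.31% over all genes) and 0 higher. Slc32a1, the vesicular GABA transporter, had 18.7, 15.5 and 16.6 CPM against 58.0, 47.4 and 60.0 CPM (log2 -1.70 ± 0.26 SE, adjusted p = 0.000115), and the GABA-B subunit Gabbr1 was at -0.72. Slc32a1 held in 6 of 6 refits and Gabbr1 in 3. Gad1, which makes GABA, did not pass (0.21 ± 0.20 SE, adjusted p = 0.642), and neither did the vesicular glutamate transporter Slc17a6 (0.47 ± 0.20 SE, adjusted p = 0.200). Of 17 ionotropic glutamate receptor genes, Gria1 was lower (-1.11), in 6 of 6 refits. It made up 5.88% of them, against 3.31% lower over all genes.

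More ion channel genes were lower than higher. Of 40 calcium, sodium, HCN and TRP channel genes, 6 were lower (15%, against 3.31% over all genes) and 1 higher (2.5%, against 2.97%). Their median was -0.29. The higher one was Trpc7, a cation channel gated through phospholipase C, at 46.7, 35.2 and 50.7 CPM against 22.6, 20.6 and 24.98 CPM (log2 0.96 ± 0.26 SE, edgeR adjusted p = 0.0268). Among those that were lower were the auxiliary subunits Scn2b (-1.32), Cacna2d2 (-1.03), Cacnb1 (-0.82) and Cacng2 (-0.75) and also the pacemaker channel Hcn2 (-0.95). Most of them do not form the pore themselves. Trpc7 held in 1 of 6 refits without a library, Cacng2 in 2 and Cacnb1 in 5, and the others named here in all 6. Cacng2 did not pass with the block (adjusted p = 0.0568). Of 40 potassium channel genes, the auxiliary subunit Kcnab2 (-1.25), Kcna3 (-1.15) and Kcnma1 (-1.10) were lower and 0 were higher, with a median of -0.28. Those that were lower made up 7.5%, against 3.31% over all genes. Kcna3 held in 2 of 6 refits and not with the block (adjusted p = 0.0565), and Kcnma1 was lost without the pull-down of pool 2.

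Steroid receptors, through which ovarian hormones act, mostly did not pass. Of 22 such receptors and coregulators, 3 were lower (13.6%, against 3.31% over all genes), with a median of -0.26. These were the thyroid receptor Thra (-0.68), the orphan receptor Esrra (-0.66) and the retinoid X receptor Rxra (-0.61). Thra and Esrra held in 6 of 6 refits without a library and Rxra in 1, and Rxra did not pass with the block (adjusted p = 0.0508). Esr1, estrogen receptor alpha, had 7.36, 6.06 and 9.81 CPM in the pull-downs and 12.2, 10.4 and 32.6 CPM in the supernatants. Every pull-down lay below every supernatant, and the gap rested largely on the supernatant of pool 2 (-1.25 ± 0.57 SE, adjusted p = 0.223). Esr2, estrogen receptor beta, the form known from GnRH neurons, was at 1.07, 2.35 and 2.50 CPM against 0.908, 0.705 and 2.00 CPM, with overlapping groups (0.71 ± 0.78 SE, adjusted p = 0.700). The progesterone receptor Pgr did not pass (-0.50, adjusted p = 0.168).

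Of 28 steroid-responsive hypothalamic genes, Ecel1, an endopeptidase of neurons, was higher at 281, 193 and 274 CPM against 129.6, 122 and 147 CPM (log2 0.90 ± 0.27 SE, edgeR adjusted p = 0.0468), and 0 were lower. The call held in 1 of 6 refits, the one without the pull-down of pool 1, and the median of the list was -0.34. Ecel1 made up 3.57% of the list, against 2.97% higher over all genes. Of 22 immediate early genes, Jund was lower (-0.61, adjusted p = 0.00527, 0.0680 without the supernatant of pool 0). It made up 4.55% of them, against 3.31% lower over all genes. Their median was -0.36, and Fos did not pass (-0.20, adjusted p = 0.908). With the pool as a block 1 of these genes was higher (Btg2) and 3 were lower (Arc, Egr4 and Jund). Over all 16713 genes the block called 456 higher and 571 lower.

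Other preoptic peptides were not called in either direction. None of 27 passed in edgeR, with a median of -0.42. All pull-downs lay below the supernatants for 7 of the 27 (14.5% over all genes tested) and above them for 0 (12.8% over all genes). Oxt, the oxytocin precursor, had 101, 93.1 and 105 CPM in the pull-downs and 334, 125 and 179.5 CPM in the supernatants (log2 -1.09 ± 0.44 SE, adjusted p = 0.162). The pull-downs were nearly equal while the supernatants differed from pool to pool. With the pool as a block, 5 peptides were lower: Avp, Oxt, Penk, Sst and Trh. Over all 16713 genes the block called 456 higher and 571 lower. The genes that process peptides in dense-core vesicles mostly did not pass, with 0 of 22 higher and a median of -0.11. Of the 22, 1 was lower (4.55%, against 3.31% over all genes). The lower one was the granin Vgf, at 58.7, 51.3 and 60.2 CPM against 136, 107 and 132 CPM (-1.14 ± 0.31 SE, adjusted p = 0.0244), a call that held in 1 of 6 refits without a library. The block gave 2 higher (Resp18 and Qpct) and 2 lower (Ptprn and Vgf).

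Chaperones of the endoplasmic reticulum did not pass in the fit without a block (0 of 26, median 0.24), though in 10 of 26 every pull-down lay above every supernatant (12.8% over all genes). The pool block called 4 of the 26 higher (456 of 16713 over all genes): Hspa5, Hyou1, P4hb and Pdia6. Hyou1, a chaperone of the reticulum's lumen, had 32.9, 28.02 and 51.3 CPM in the pull-downs and 17.1, 19.1 and 26.7 CPM in the supernatants (log2 0.84 ± 0.33 SE, edgeR adjusted p = 0.150, 0.0331 with the block). The highest pull-down and the highest supernatant were both of pool 2. Nuclear genes of oxidative phosphorylation gave 0 of 76 called and a median of -0.04. Within pools 0, 1 and 2 their medians were -0.41, 0.05 and 0.26.

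The enrichment after ovariectomy was then set beside that of the other conditions, which share no library with it. Of the 496 higher genes, 375 were also called higher in intact females (75.6% of them, 22% of the 1706 called there, themselves 10.2% of genes tested). The corresponding overlap was 392 with orchidectomized males (79%, and 39.6% of their 991, which are 5.93% of genes tested) and 464 with intact males (93.5%, and 19% of their 2446, which are 14.6%). Of the 554 lower genes, 422 were called lower in intact females (76.2%, and 32.5% of 1299, 7.77% of genes tested), 340 in orchidectomized males (61.4%, and 43% of 791, 4.73%) and 436 in intact males (78.7%, and 23.2% of 1879, 11.2%). No gene was called in opposite directions in any of the 3 pairings. Calls in no other condition were found for 13 of the higher and 59 of the lower genes. Lrrc17 was the gene among the 23 named whose values elsewhere lay nearest to 0, at -0.13 in intact females, 0.45 in orchidectomized males and -0.57 in intact males.

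**Figure D5:**
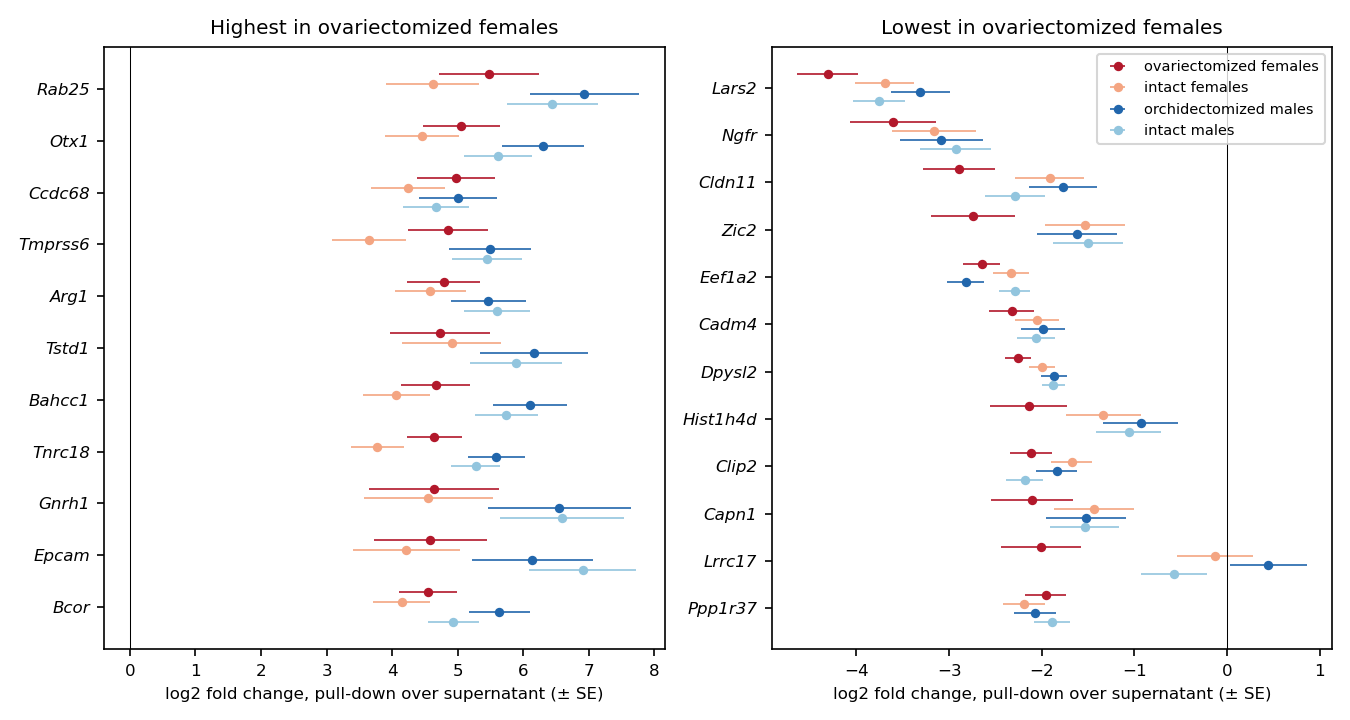
Log2 fold change of pull-down over supernatant, with its SE, for 11 of the 12 highest (left) and the 12 lowest (right) genes of ovariectomized females in the 4 conditions. The genes were chosen on the red values, so those are a description. All 11 genes on the left are positive in the 4 conditions, and on the right Lrrc17 alone has a value above 0 in another condition (0.45 in orchidectomized males).

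Whether the enrichment itself differed after ovariectomy was tested gene by gene. Against intact females 0 of 16713 genes passed in edgeR, 1248 (7.47%) had an unadjusted p under 0.05 and DESeq2 called 10. Against orchidectomized males 0 passed in edgeR, 880 (5.27%) had an unadjusted p under 0.05 and DESeq2 called 11. Some DESeq2 calls carry extreme fitted log2 differences, among them 22.3 for Sec14l4 and -22.1 for Rbp3 against intact females. Against orchidectomized males they include 22.6 for Serpinb2 and -21.7 for Tcap. Such values are no measure of size. The enrichment of Gnrh1 differed from that in intact females by 0.09 ± 1.20 SE on the log2 scale (adjusted p = 1.00) and from that in orchidectomized males by -1.91 ± 1.22 SE (adjusted p = 1.00). With SEs of this size, these tests leave room for several-fold differences either way in Gnrh1. The first of them also moves with the library numbering and with 1 library. It was 3.63 among libraries numbered 11 to 30, where 1 intact pool is left, and -2.71 when replicate 2 of the intact female supernatants, with 1579 CPM of Gnrh1, was left out. Among pull-downs of intact mice, the 3 numbered 11 to 30 held 3174, 4616 and 4527 CPM of Gnrh1, below all 4 numbered 1 to 10 and below the 3 of ovariectomized females. Libraries 1 to 10 hold no ovariectomized pool.

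The gene with the lowest p against intact females was Slitrk6, a synaptic adhesion protein of the inner ear and brain. It stood at 3.65, 2.81 and 7.69 CPM in the pull-downs of ovariectomized females and at 0.908, 0.928 and 1.39 CPM in their supernatants. In intact females the pull-downs held 0.0531 to 0.126 CPM and the supernatants 1.02 to 2.70 CPM. The pull-downs were thus above the supernatants after ovariectomy and below them in intact females, and the difference of enrichment was 6.16 ± 1.09 SE, with an edgeR adjusted p of 0.145, which did not pass. In DESeq2 the adjusted p of Slitrk6 was 1.87e-05. Among the next were the zinc-finger gene Zfp108 (1.47), Asb10 and the interferon-induced GTPase Gbp4 (6.14), each with an adjusted p of 0.664. In DESeq2 Zfp108 (adjusted p = 0.00105) and Gbp4 (0.0178) passed. Asb10 had no reads in the intact pull-downs. Against orchidectomized males the lowest p values were those of Rn45s (-1.92) and the microRNA-silencing gene Tnrc6b (-1.33), with an adjusted p of 0.680, and of Cdr1 (-1.67), Zfp108 (1.49) and Lcn12, with an adjusted p of 0.829. In DESeq2 Rn45s (0.00176), Tnrc6b (0.00415), Cdr1 (0.0150) and Zfp108 (0.00119) passed, by their adjusted p. Lcn12 had no reads in the 3 pull-downs of ovariectomized females. Tnrc6b had 53.7, 38.3 and 40.9 CPM in those pull-downs and 57.4, 37.2 and 40.2 CPM in their supernatants, against 83.4 to 94.7 and 34.9 to 38.4 CPM in orchidectomized males.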

How the data were processed

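Fragments were counted in 26 TRAP-seq libraries of mouse preoptic area, and the 6 of ovariectomized females are described here. The values are estimated counts per gene as deposited by the authors. The submitters' processing notes name Cuffdiff 2.1.1 and Cufflinks, TopHat2 2.0.9 with Bowtie2 2.1.0, FastQC and build mm10. Nothing in the sources used here gives the annotation or how reads with several matches were handled, so near-identical or overlapping genes are uncertain. The SMART-Seq low-input kit, named in the labels' protocols, gives cDNA libraries that carry no strand. Of the values in the 6 libraries, 1.48% were not whole and were rounded.

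Genes (23107 in the table) were filtered with filterByExpr (minimum count 10, minimum total 15), scaled by TMM and tested with the quasi-likelihood F-test of edgeR 4.0.16 in R 4.3.3. The fit held all 26 libraries in 8 groups, which share one estimate of spread, and p-values are two-sided with Benjamini-Hochberg adjustment over all 16713 genes. Every adjusted p is from edgeR unless another tool is named. Differences of enrichment are interaction contrasts of the same fit. Fold changes are pull-down over supernatant, and a gene passed at an adjusted p under 0.05.

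Both fractions of a number come from the same pool per the labels, and the deviations of same-numbered libraries correlated by 0.036 to 0.131. The pool as a block is an alternative. Others were the size factors of DESeq2, no filter, DESeq2 1.42.0, limma 3.58.1 voom with a weight per fraction, only the groups compared, only libraries numbered 11 to 30, and each replicate left out. The 6 libraries alone with the block were added after seeing the data. The code was tested on simulated counts.

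The named genes are the 12 highest and 12 lowest of log2 fold change, taken from genes that passed, had 1 direction in 3 of 3 pools and averaged at least 5 CPM in the higher fraction. In tests of a difference they are the 5 with the lowest p. Some genes that these rules select are not reported here. Predicted genes, cytosolic ribosomal protein genes and mitochondrially encoded genes were skipped. Members of 26 gene lists (655 genes, 653 matched, 8 by a synonym) could always be named, and Tnrc6b and Rn45s are given with values because of the tests of a difference. The members and lists were chosen with earlier results of these data known. Positions and upstream windows are from RefSeq on GRCm38.p6. Counts are of PCR-amplified cDNA without molecular identifiers.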

Additional observations from a re-analysis of the deposited data

How the results depend on the processing

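Of the 24 genes selected by fold change, the alternatives changed no direction, and Lrrc17 alone lost its call, as given above. The enrichment gave 1050 genes, and 1027 with the pool as a replicate block (456 higher, 571 lower), which changed the calls given beside the lists and also called Otud4, Spint2 and Pgrmc1 higher and Cplx1, Vamp1, Vamp2, Slc17a7, Adra2a, Ptgds, Penk and Olig2 lower. Of the 1050 genes, 849 (80.9%) were among these 1027. Among libraries numbered 11 to 30 the enrichment gave 1985 (974 higher, 1011 lower). The lower genes were 325 in limma voom and 358 in the 6 libraries alone with the block. These 2 fits kept 733 (69.8%) and 622 (59.2%) of the 1050 calls. Leaving out each replicate in turn gave 589 to 1032 genes (285 to 527 higher, 301 to 505 lower), with 594 without the supernatant of pool 0 and 589 and 676 without the pull-downs of pools 2 and 0. The cause was not tested. The difference from intact females gave 10 genes in DESeq2 (7 higher, 3 lower) and, leaving out replicates, 0 to 296 (0 to 159 higher, 0 to 137 lower), the 296 without the pull-down of intact female replicate 2, which leaves intact pull-downs of the low numbers only. The difference from orchidectomized males gave 11 in DESeq2 (5 higher, 6 lower), 1 (lower) in libraries numbered 11 to 30, and 0 to 1 leaving out replicates (0 to 1 lower). List medians that moved by more than their spread between pools were those of GnRH neuron genes (0.49 to 0.69 leaving out replicates), steroid receptors (-0.37 to -0.11), immediate early genes (-0.55 to -0.17), oligodendrocyte precursors (-0.84 to -0.43), astrocytes (-0.42 to -0.28) and meningeal and choroid plexus markers (-0.74 to 0.10, and -0.34 with the block). The ependymal median (-0.15 to 0.51) turned to -0.15 without the pull-down of pool 0, and the meningeal one to 0.10 without the supernatant of pool 1.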
